A study of Mus musculus with 8 samples.

Results

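The retinoid storage and metabolism genes followed here were Lrat, Bco1, Rbp4, Rdh10, Aldh1a1, Aldh1a2, Crabp1, Cyp26a1 and Cyp26b1. They were taken by gene symbol from the count table, 9 of 46517 genes, and all 9 were present with 1 row each. The table holds 3491 cells of adult mouse liver, sequenced 1 by 1 with the Smart-seq2 protocol, a full-length method without molecular identifiers, in 50-base reads. The 8 samples are the male and the female cells of 4 classes: 655 and 451 endothelial, 358 and 39 epithelial (parenchymal), 255 and 396 immune, and 998 and 339 mesenchymal cells. All mice were on a C57Bl6 background and untreated. Mesenchymal and endothelial cells came from mice heterozygous for the fluorescent reporters Pdgfrb-GFP, Pdgfra-H2bGFP, Acta2-GFP, Cspg4-dsRED or Cldn5-GFP, or were sorted with antibodies to PDGFRα, CD31 or VE-Cadherin. Cholangiocytes were sorted by EPCAM and Kupffer cells by CD68, while hepatocytes were live cells taken without selection after dissociation without perfusion. A reporter or antibody limits which cells of a class were caught, and the labels do not tie cells to single mice, so each value below belongs to a pool of cells of 1 sex.

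Vitamin A reaches the liver as retinyl esters. Hepatocytes take these up, hydrolyse them to retinol and release retinol into the blood bound to RBP4, whereas hepatic stellate cells re-esterify retinol with LRAT and keep the ester in lipid droplets. Retinol is oxidised to retinal by dehydrogenases such as RDH10 and then to retinoic acid, the ligand of nuclear receptors, by ALDH1A enzymes. BCO1 supplies retinal by cleaving provitamin A carotenoids, CRABP1 binds retinoic acid in the cytoplasm, and CYP26A1 and CYP26B1 degrade it.

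In the GRCm38 annotation (GENCODE) Lrat lies at chr3:82892579-82903973 on the minus strand and Bco1 at chr8:117095854-117133720 on the plus strand. Rbp4 (chr19:38116629-38125281, minus), Aldh1a1 (chr19:20492715-20643465, plus) and Cyp26a1 (chr19:37697798-37701536, plus) share a chromosome. Rdh10 lies at chr1:16105774-16133734 (plus), Aldh1a2 at chr9:71215789-71296243 (plus), Crabp1 at chr9:54764748-54773110 (plus) and Cyp26b1 at chr6:84571414-84593908 (minus). All are protein coding, and the counts are of reads on their exons.

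Retinoic acid receptors bind pairs of short repeats, so the RefSeq promoter windows of the members (GRCm38.p6, 250 bases before to 50 bases after each start) were searched on both strands for pairs of direct repeats, each AGGTCA, with G also allowed for its opening A and T for the G just before its closing TCA, and with 1, 2 or 5 bases between them. The table held 10 windows for 8 of the members. A pair 1 base apart was found for Bco1 and a pair 5 bases apart for Cyp26a1, both on the strand opposite to the gene. Among all 32851 windows of this length, 0.222% held a pair 1 base apart, 0.268% a pair 2 bases apart and 0.0974% a pair 5 bases apart. The stretches from 150 to 16 bases before the start are shown for both of these genes and, as the storage gene without such a pair, for Lrat, with the pair and its spacer in capitals. They cover chr3:82903990-82904124 (Lrat), chr8:117095715-117095849 (Bco1) and chr19:37697658-37697792 (Cyp26a1), each on the strand of its gene.
Lrat: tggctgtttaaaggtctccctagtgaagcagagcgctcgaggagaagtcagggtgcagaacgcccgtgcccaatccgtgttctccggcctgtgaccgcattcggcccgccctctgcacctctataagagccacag
Bco1: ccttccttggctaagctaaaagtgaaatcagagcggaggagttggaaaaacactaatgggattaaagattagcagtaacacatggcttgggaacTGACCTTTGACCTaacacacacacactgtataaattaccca
Cyp26a1: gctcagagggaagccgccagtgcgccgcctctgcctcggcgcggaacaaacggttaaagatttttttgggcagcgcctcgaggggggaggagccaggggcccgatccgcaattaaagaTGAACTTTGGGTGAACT
A match describes these letters and not binding in liver cells.

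Levels are given as CPM, the reads of a gene summed over the cells of a cluster and pool, per 1000000 reads on all genes in those cells. With ERCC spike-ins included, the total per cell was 50042 to 1143895 counts with a median of 233696. Without them, the median per pool ran from 88932 (female epithelial) to 321121 (female mesenchymal). No cell was listed in more than 1 class, and none of the 22 plates held cells of both sexes. All 339 female mesenchymal cells came from 1 plate, so sex, plate and mice cannot be told apart there. The 38 clusters are those of the study and were made on the same transcriptomes. They were grouped after the authors' annotation, except for e7, which the authors annotate as central vein and which is counted here with the sinusoidal clusters, into stellate (m7c and the capsular m3c), mural (smooth muscle m2c, m8c, m9c and m15c, with m5c, annotated as second layer cells), fibroblast, mesothelial, hepatocyte (p1, p3, p4, p5), cholangiocyte (p2), sinusoidal and other endothelial, and immune cells.

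The marker lists showed where a label needs care. The summed level of 6 stellate markers (Reln, Hgf, Lhx2, Ngfr, Pth1r, Plvap) was 8870 CPM in m7c, 2865 in m3c and 877 in m5c. In m5c the fibroblast markers summed to 5617 CPM and the mural markers to 1601, against 16844 and 19393 for the mural markers in m15c and m2c, so m5c is called by its number below. In m3c the fibroblast markers (4703 CPM) were also above the stellate ones. The 9 hepatocyte markers summed to 5407 CPM in the cholangiocyte cluster p2 and to 3253 CPM in the fibroblast cluster m6c, against 10918 to 31115 in the hepatocyte clusters. Values of m6c are given only as such.

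**Figure D1:**
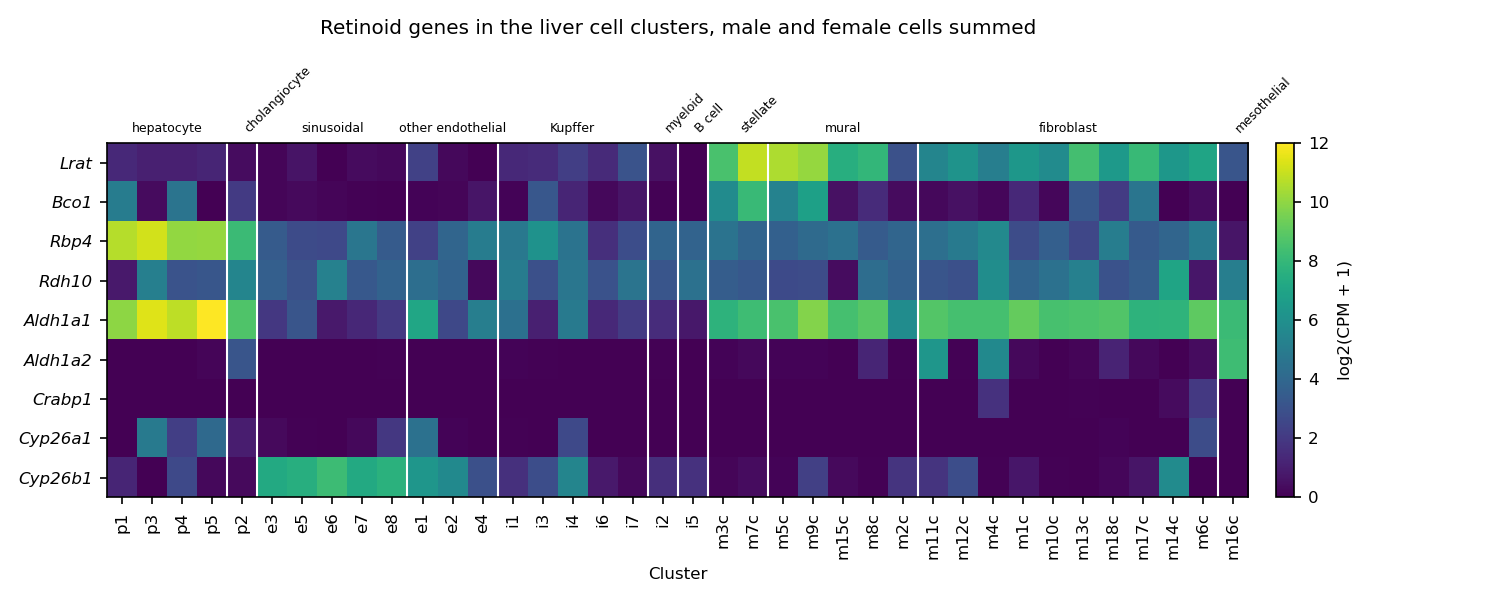
Level of each of the 9 genes (rows) in each of the 38 clusters (columns, grouped by cell type), as log2(CPM + 1) of counts summed over male and female cells. Lrat is brightest in m7c, m5c and m9c (1932, 1467 and 1122 CPM), Rbp4 and Aldh1a1 in the hepatocyte clusters, and Cyp26b1 in the endothelial clusters.

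Lrat, which makes the storage ester, was highest in m7c at 1932 CPM, in m5c at 1467 CPM and in the venous smooth muscle cluster m9c at 1122 CPM. The male and female values were 1873 and 2614 CPM in m7c (68 and 4 cells), 1554 and 1292 CPM in m5c (66 and 21 cells), and 1100 and 1154 CPM in m9c (29 and 10 cells). The pools of these 3 neighbours in the order did not overlap, but the female m7c value rests on 4 cells. The capsular stellate cluster m3c followed at 379 CPM (359 in male and 445 in female cells), below m9c in both pools and next to the fibroblast cluster m13c at 338 CPM (male cells only). Below it the pools overlapped, as in m8c (213 and 396 CPM), m15c (1.22 and 224 CPM) and m12c (18.1 and 109 CPM). Arterial smooth muscle cells (m2c) had 1.45 and 10.3 CPM, and no hepatocyte, cholangiocyte or endothelial cluster passed 4.2 CPM in either pool.

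Within clusters the signal lay in some cells and not in others. At least 1 Lrat count was found in 88.9% of m7c cells (exact binomial 95% interval 79.3 to 95.1%), 90.8% of m5c (82.7 to 95.9%), 84.6% of m9c (69.5 to 94.1%) and 66.4% of m3c cells (56.9 to 75.0%). The share of cells with at least 1 count differed between pools also where the level was low. It was 89.9% in the female m2c cells, at a median of 8.2 CPM, against 13.4% in the male m2c cells, and it was 18.4% in male hepatocytes. None of the m2c cells or hepatocytes reached 20 Lrat counts. At 20 counts the share was 80.6% in m7c, 79.3% in m5c, 69.2% in m9c and 35.4% in m3c. In m3c this holds in both pools (35.2 and 36.4%), and single m3c cells reached 3093 CPM while the median was 11.5 CPM. In m7c the median cell had 1856 CPM. Over the plates with at least 5 cells of a cluster, the level ran from 363 to 4252 CPM in m7c, from 567 to 2237 CPM in m5c and from 0 to 533 CPM in m3c, so m7c and m5c overlapped over plates.

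Bco1, the carotenoid cleaving enzyme, was also highest in m7c, with the same 4 clusters leading in another order. It stood at 282 CPM in m7c, then in m9c at 113 CPM, m3c at 54.1 CPM and m5c at 39.6 CPM. The pools differed: male and female cells had 303 and 34.4 CPM in m7c, 175 and 20.4 CPM in m9c, and 68.2 and 9.65 CPM in m3c, but 38.8 and 41.2 CPM in m5c. Among female cells alone m5c was therefore highest, with m7c represented by 4 cells of which 1 carried all counts. In m3c, 1017 of the 1344 counts came from 17 cells of the plate that also held most hepatocytes, where the level was 311 CPM against 0 to 37.5 CPM on the others. The hepatocyte clusters had 0 to 26.3 CPM on that plate, and the source of the m3c counts was not tested. At least 1 count was found in 54.2% of m7c cells (42.0 to 66%), 35.9% of m9c, 20.7% of m5c and 12.4% of m3c cells, against 2.36% of sinusoidal endothelial cells. The mural clusters m2c, m8c and m15c stayed at or below 2.17 CPM in both pools.

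Most stellate and m5c cells with a Bco1 count also had Lrat, but Lrat was found in most cells of these clusters. Of the 39 m7c cells with a Bco1 count, 34 (87.2%) also had Lrat, as did 18 of 18 in m5c and 12 of 14 in m3c, while 53.1% of the Lrat cells of m7c, 22.8% of m5c and 16% of m3c had Bco1. In all cells, with or without Bco1, the share with Lrat was 88.9% in m7c, 90.8% in m5c and 66.4% in m3c. In hepatocytes Bco1 summed to 17.1 CPM in male cells, but few cells carried it: 98.7% of the counts of p1 and 49.2% of those of p4 came from 1 cell each, and p5 had none.

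**Figure D2:**
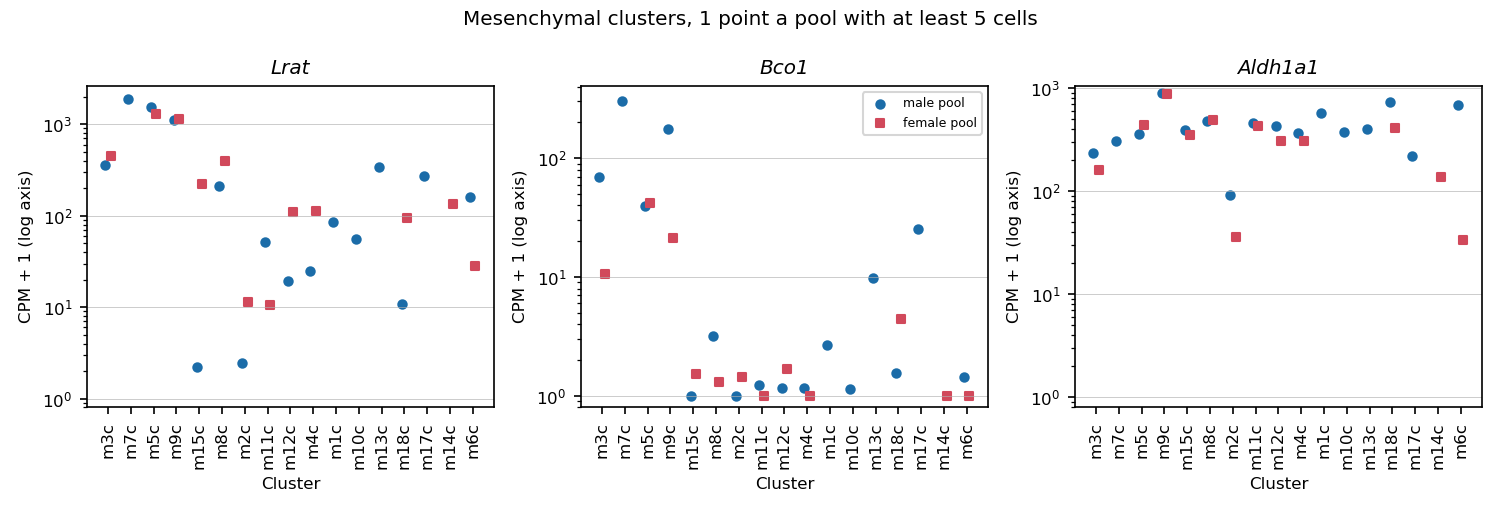
CPM + 1 (log axis) of Lrat, Bco1 and Aldh1a1 in each mesenchymal cluster, 1 point for the male pool (circles) and 1 for the female pool (squares) where it has at least 5 cells. Lrat is at 1100 CPM or more in m7c, m5c and m9c, Bco1 is at 2.17 CPM or less in m15c, m8c and m2c, and Aldh1a1 is at 32.8 CPM or more throughout.

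Rbp4, the serum carrier of retinol, was a hepatocyte transcript. The male pools had 2342 CPM in p3, 1659 in p1, 1098 in the pericentral cluster p5 and 1074 in the periportal cluster p4, and 98.5% of hepatocytes had at least 1 count. The exact Poisson intervals of p4 (1057 to 1092 CPM) and p5 (1077 to 1119 CPM) overlapped, so these clusters were not told apart even by counting error. The cholangiocyte cluster p2 had 314 and 68.9 CPM in male and female cells. The highest male p2 cell had 19387 CPM and the next 3958 CPM.

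Elsewhere Rbp4 was set beside Alb, the albumin gene of hepatocytes. The ratio of Rbp4 to Alb was 0.13 to 0.275 in the hepatocyte clusters, 0.105 over all stellate cells and 0.0571 over all mural cells, where Rbp4 stood at 19.5 and 13.8 CPM and Alb at 186 and 241 CPM. In the cholangiocyte cluster p2 the ratio was 0.0886 in male and 0.0169 in female cells, at 3545 and 4070 CPM of Alb. All 9 hepatocyte markers were above 0 in both stellate clusters. With both pools summed the ratio was 0.00529 to 0.192 in the clusters outside the parenchyma other than m4c. In single pools it went higher, as in female i1 (1.02), male m15c (0.714) and male i3 (0.462). The part of hepatocyte RNA from outside the cell in these levels was not tested. The peribiliary fibroblast cluster m4c had 50.9 and 42.1 CPM of Rbp4 in its male and female cells. Its ratio was 1.19 in male cells, at 42.7 CPM of Alb, and 0.178 in female cells, at 237 CPM of Alb, so only the male pool stood above the range of the summed clusters. In m4c 22.1% of cells had an Rbp4 count, and the strongest cell held 12.9% of them.

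**Figure D3:**
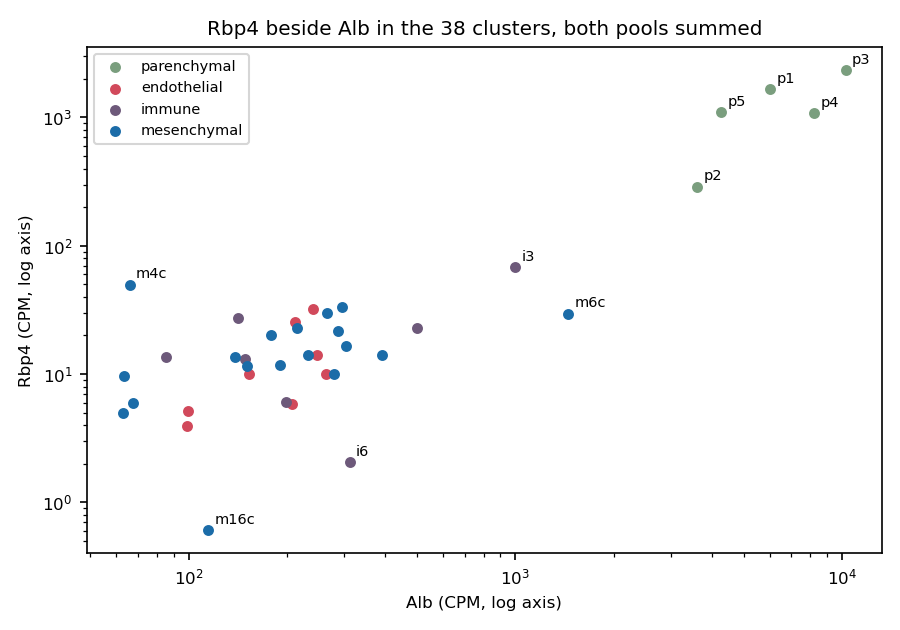
Rbp4 against Alb in CPM (both axes log) for the 38 clusters, both pools summed, coloured by class. The hepatocyte clusters lie at the upper right, most others near 10 CPM of Rbp4, and m4c has the highest ratio of the clusters, at 49.9 CPM of Rbp4 with 66 CPM of Alb.

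Rdh10, the dehydrogenase that makes retinal from retinol, was low and spread over many clusters. Its highest sums were 129 CPM in m14c, a cluster of 9 cells in which 86.0% of the counts came from 1 cell, and 59.1 CPM in m4c, which held in both pools (57.3 and 72.6 CPM in male and female cells). The cholangiocytes of p2 followed at 43.2 CPM (47.3 and 6.25 CPM), and the sinusoidal cluster e6 at 37.5 CPM (61.6 and 26.5 CPM). Stellate cells had 12.1 and 0.555 CPM in male and female cells, mural cells 15.9 and 4.89 CPM, and hepatocytes 8.9 CPM in male cells. The median cell had no Rdh10 count in any of the clusters, both pools together. The pools of stellate, mural and fibroblast clusters overlapped.

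Aldh1a1, a retinal dehydrogenase, stood per kilobase of exon above Rdh10 and Aldh1a2 in every parenchymal and every mesenchymal cluster except the mesothelial m16c. In male hepatocytes it ran from 1019 CPM in p1 and 1828 CPM in p4 to 2732 CPM in p3 and 4149 CPM in p5. The label of p5 as pericentral and p4 as periportal was borne out by Cyp2e1 and Glul, summed to 5134 CPM in p5 and 242 CPM in p4, and by Cyp2f2, Hal and Sds, summed to 46.1 CPM in p5 and 3633 CPM in p4. Aldh1a1 was 2.27 times as high in p5 as in p4, with exact Poisson intervals of 4108 to 4190 and 1805 to 1851 CPM. This difference has no replicate, since both clusters hold male cells only and 94.9 and 98.2% of their cells came from 1 plate.

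Outside hepatocytes Aldh1a1 was found throughout the mesenchyme. The venous smooth muscle cluster m9c was highest of the mesenchymal clusters at 884 and 862 CPM in male and female cells. Stellate cells stood at 231 and 160.2 CPM in m3c and at 302 and 361 CPM in m7c, and m5c at 355 and 431 CPM. Arterial smooth muscle (m2c) was low at 89.8 and 35.2 CPM. The sinusoidal endothelial clusters were at or below 9.36 CPM in both pools, whereas e1 had 71.8 and 219 CPM in male and female cells. With both pools summed, the lymphatic cluster e4 had 33.9 CPM. The portal vein cluster e2 had 5.15 CPM, within the range of the sinusoidal clusters. Of the clusters annotated as central vein, e7 had 1.02 and 1.83 CPM, so the level of e1 was not shared by it.

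Aldh1a2, the paralogue known from embryonic retinoic acid synthesis, was kept to few clusters. The 6 mesothelial cells (m16c) had 312 CPM, from 3 cells, with 439.6 CPM in the 4 that were male and 181 CPM in the 2 that were female. The male cells of the fibroblast clusters m11c and m4c had 92.8 and 57.6 CPM, from 6 and 10 cells, and their 5 and 9 female cells had no count. Cholangiocytes had 8.61 and 1.12 CPM. The 185 stellate cells held 5 counts, at 0.122 and 0.139 CPM in male and female cells, and the 201 male hepatocytes had 1 count. Crabp1 was close to absent: 75 counts were found in all 3491 cells, 70.7% of them in 1 cell, with 3 CPM in m6c and 2.3 CPM in m4c. The 185 stellate and 467 mural cells had none, which at 3 counts of the total allows a share of up to 1.62% of stellate and 0.642% of mural cells with a count (exact binomial upper bounds of 1.97 and 0.787%).

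Cyp26a1 was highest in hepatocyte clusters and in the central vein cluster e1, which held 66.3% of all its counts. Among male hepatocytes p3 had 30.4 CPM from 4 cells, p5 16.3 CPM with 99.4% of the counts in 1 cell, p4 3.72 CPM from 2 cells, and p1 had none. In e1 the level was 18.5 and 25.7 CPM in male and female cells, from 4 cells each, with 45.3% of the male and 88.7% of the female counts in 1 cell. Sums of 6 CPM in m6c, 5.19 CPM in i4 and 2.91 CPM in e8 rested on 1, 2 and 4 cells. No stellate or mural cell had a Cyp26a1 count, with the same limits, of both kinds, as for Crabp1. The paired repeats in the Cyp26a1 stretch above lie 32 to 16 bases before its start.

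Cyp26b1, its paralogue, was highest in endothelial clusters. It reached 299 CPM in e6, 201 CPM in e8, 185 CPM in e5, 156 CPM in e3 and 155 CPM in e7, which are the 5 clusters counted as sinusoidal. The male and female pools had 208 and 340.4 CPM in e6, 347 and 130.1 CPM in e8, 153 and 302 CPM in e3, and 146 and 162 CPM in e7, while e5 had 191 CPM in its female pool. The ranges of e8 and e3 overlapped those of the other sinusoidal clusters, whereas both pools of e7 lay below both pools of e6. Central vein (e1) and portal vein (e2) endothelium had 69 and 88.1 CPM and 13.1 and 82.3 CPM, and the lymphatic cluster e4 had 18.1 and 1.4 CPM. Outside the endothelial class, m14c (9 cells) had 54.3 CPM and the immune cluster i4 42.7 CPM, and 4 endothelial markers summed to 1484 and 1145 CPM there, against 3125 to 5341 CPM in the endothelial clusters; their part in these levels was not tested. Stellate cells had 0.244 CPM in male cells and none in female cells, and mural cells 2.94 and 0.197 CPM.

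**Figure D4:**
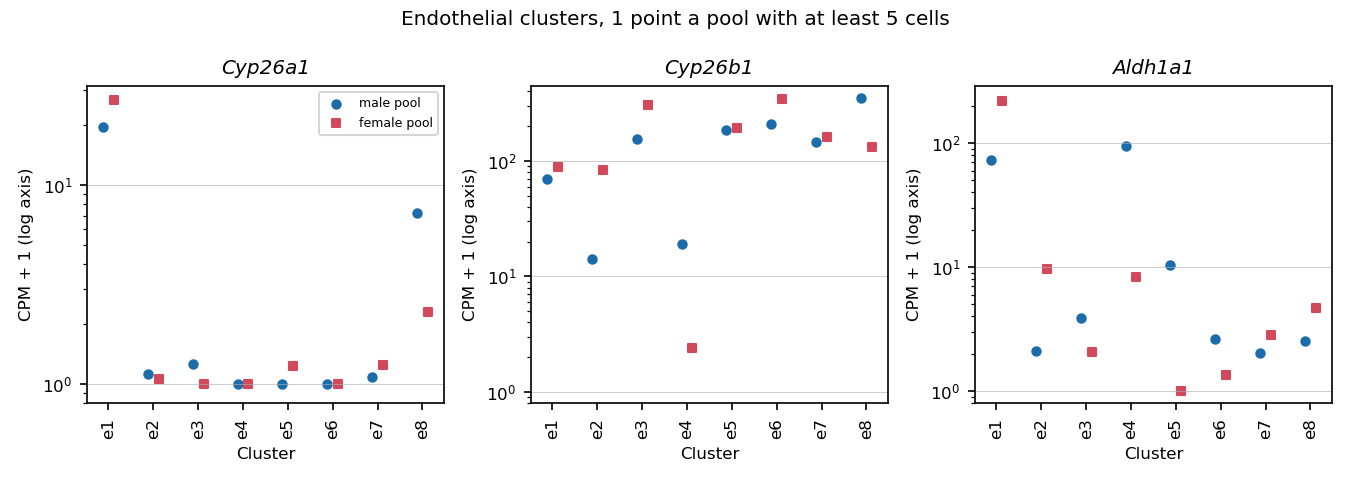
CPM + 1 (log axis) of Cyp26a1, Cyp26b1 and Aldh1a1 in the endothelial clusters, 1 point for the male pool (circles) and 1 for the female pool (squares) where it has at least 5 cells. With e7 counted as sinusoidal, the sinusoidal points of Cyp26b1 lie at 130.1 CPM or above and the others at 88.1 CPM or below, while Aldh1a1 reaches 219 CPM in e1.

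**Figure D5:**
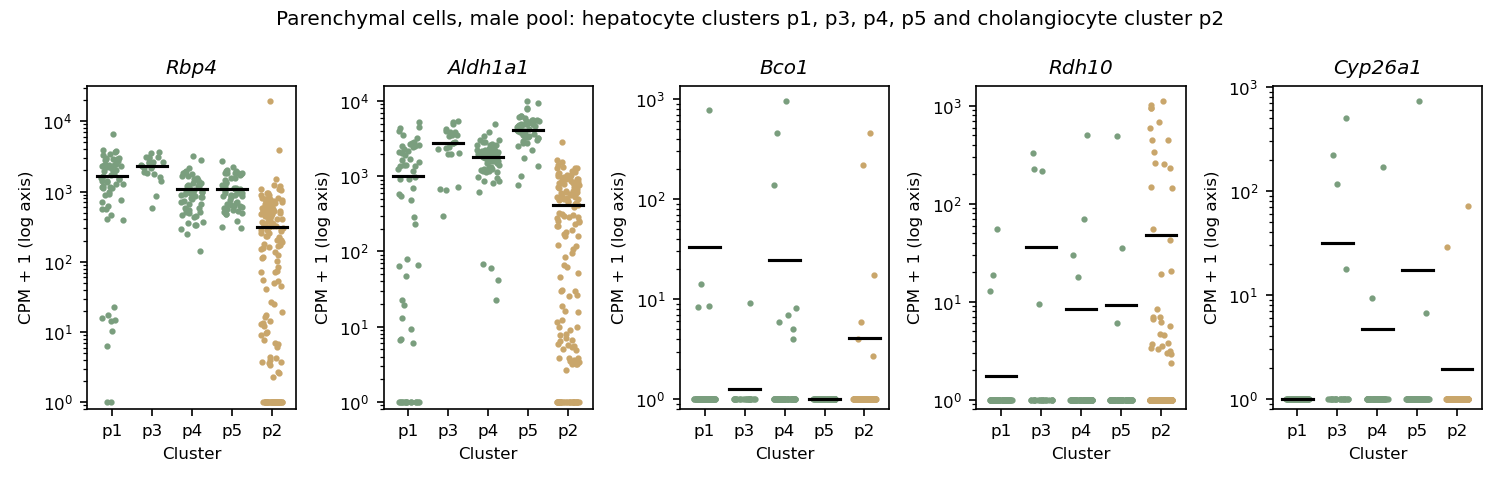
CPM + 1 (log axis) of Rbp4, Aldh1a1, Bco1, Rdh10 and Cyp26a1 in single male cells of the hepatocyte clusters p1, p3, p4 and p5 and the cholangiocyte cluster p2, 1 dot a cell, with a bar at the level of the summed counts. Rbp4 and Aldh1a1 are found across the cells of p3, p4 and p5, whereas the bars of Bco1, Rdh10 and Cyp26a1 rest on few cells.

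Levels of different genes were compared per kilobase of exon (CPM per kb). In stellate cells the order was Lrat (180.4 CPM per kb), Bco1 (55.1), Aldh1a1 (50.5), Rbp4 (14.5) and Rdh10 (2.4), with the remaining genes at or below 0.0553. The place of Bco1 rests on male m7c cells: in female stellate cells it stood at 5.4 CPM per kb, below Rbp4 (39.3) and Aldh1a1 (39.2), and in m3c at 21.3 against 43.4 for Aldh1a1. In mural cells it was Lrat (83.4), Aldh1a1 (57.1), Rbp4 (10.3), Bco1 (7.17) and Rdh10 (2.53). The lead of Lrat there rests on m5c (274) and m9c (209.7). In m2c, m8c and m15c Lrat (1.28, 46.3 and 34.3 CPM per kb) was below Aldh1a1 (11.5, 96.6 and 72.5). In fibroblasts Aldh1a1 (83.4) stood above Lrat (21.8). In hepatocytes Rbp4 (1019) and Aldh1a1 (471) stood far above Bco1 (6.69), Cyp26a1 (4.49) and Rdh10 (2.13), with Lrat at 0.239. In sinusoidal endothelium Cyp26b1 (36.4) was first, followed by Rbp4 (7.97) and Rdh10 (3.79). Thus Lrat led in m7c, m3c, m5c and m9c. It also led in the fibroblast cluster m17c (31 male cells), at 273 CPM against 216 CPM of Aldh1a1. The carrier Rbp4 led in the hepatocyte clusters p1, p3 and p4, and the degrading enzyme Cyp26b1 in sinusoidal endothelium. In p5 Aldh1a1 (840.4 CPM per kb) stood above Rbp4 (818).

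The first tests asked which members set the mesenchymal class apart from the other 3. Lrat (375 CPM in male and 248 in female cells against 0.625 to 5.65), Bco1 (34.8 and 5.53 against 0.0633 to 8.56), Aldh1a1 (379 and 286 against 3.71 to 1160) and Aldh1a2 (13.6 and 1.7 against 0 to 5.27) were higher, and Cyp26b1 (1.68 and 1.45 against 0.988 to 170.1) was lower. In the quasi-likelihood fit of edgeR, with p-values adjusted after Benjamini and Hochberg, the log2 fold changes, against the mean of the other classes' log levels, were 8.06 ± 0.65 (SE) for Lrat (adjusted p = 3.7e-04), 4.69 ± 1.11 for Bco1 (0.029), 2.57 ± 0.57 for Aldh1a1 (0.022), 6.30 ± 1.27 for Aldh1a2 (0.015) and -2.53 ± 0.58 for Cyp26b1 (0.025). Thus 5 of 9 members were called, at an adjusted p under 0.05 and at least 1 log2 unit, against 11.8% of all 24046 genes tested (9.47% higher and 2.33% lower). Crabp1 did not pass the filter on low counts and was called as higher without it (adjusted p = 0.014, edgeR, at 0 to 0.343 CPM against 0). That call rests on 75 counts from 5 male cells, 70.7% of them in 1 cell, and the female pool had none. Lrat was used by the study to name stellate cells, which are part of this class. Aldh1a1 was higher than the mean of the others but not than the parenchymal cells. With sums per plate Cyp26b1 missed the threshold (adjusted p = 0.085), and with sex as a block Bco1 did (0.071). Cyp26a1 (-4.72 ± 2.01, adjusted p = 0.21) was not called, but it was called as lower with DESeq2, without the filter and with sums per plate, over a range of 0.0042 to 0.26.

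Of 57 other genes of retinoid handling in the table, 54 were tested, with 5 higher, 3 lower and a median log2 fold change of -0.11. Among binding and transport genes, Lrp1 (3.71), a remnant receptor, and Lpl (3.11), a lipase, were higher, and the lipid receptors Cd36 (-5.13) and Scarb1 (-2.16) were lower, in log2 fold change. Aldh1a3 (4.07), another retinal dehydrogenase, and Rarres2 (4.82), chemerin, were higher too, and the droplet coat gene Plin2 (-1.67) was lower.

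Parenchymal cells differed from the other classes in 4 members, against 12.4% of 24046 genes (8.37% higher and 4.05% lower). Rbp4 was higher (724 CPM in male and 109.9 in female cells against 9.31 to 24 CPM, log2 fold change 4.75 ± 0.58, adjusted p = 0.0018 in edgeR) and so was Aldh1a1 (1160 and 449.7 against 3.71 to 379 CPM, 4.18 ± 0.57, 0.0029). Neither overlapped with the other classes. Lrat (-3.90 ± 0.85, 0.021) and Cyp26b1 (-3.33 ± 0.63, 0.012) were lower, and Lrat missed the threshold in cells thinned to 50000 counts (-2.69, adjusted p = 0.086). Aldh1a2 (4.49 ± 1.23) narrowly missed the threshold (adjusted p = 0.05) and was called as higher in 5 of 6 alternatives, over a range of 7.4e-04 to 0.057. Bco1 (3.50) and Cyp26a1 (3.93) were called as higher with sums per plate alone. The female epithelial pool held 2 hepatocytes among 39 cells, and the part of this in its levels was not tested.

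The list genes that were higher in parenchymal cells numbered 14 of 54 tested, with 2 lower and a median of 0.54. The transport genes Ttr (4.90), the partner of RBP4 in blood, and Stra6l (6.78), an RBP4 receptor homologue, were among them. So were the ester genes Ces1e (7.49), Ces1d (6.48), Ces1g (5.87) and Dgat2 (5.52), and the oxidoreductases Aldh1a7 (9.42), Aldh8a1 (6.85), Rdh7 (6.08) and Adh1 (4.10). Lpl (-3.94) and Hoxa5 (-7.69) were the 2 lower ones.

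Between stellate and mural clusters 1 of 8 members was called, Bco1, against 1.26% of 21329 genes (1.02% higher). It had 9.65 and 68.2 CPM in the 2 pools of m3c and 303 CPM in male m7c, against 0 to 175 CPM in the 10 mural sums. The groups overlapped through m9c and m5c, and the log2 fold change was 5.0 ± 1.09 (edgeR, adjusted p = 0.010). Bco1 is among the genes the study named for stellate cells on these same cells, so this is no independent evidence of its direction. Lrat, used for the naming, is given without a test: its 3 stellate sums were 359, 445 and 1873 CPM and its mural sums 1.22 to 1554 CPM. Aldh1a1 (-0.46 ± 0.53), Rbp4 (0.43 ± 1.23) and Rdh10 (0.77 ± 1.35) missed the threshold, and Cyp26a1 and Crabp1 had no count on either side.

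Of 52 list genes tested 4 were higher in stellate clusters and none lower, with a median of 0.19. Among these were the receptor Lrp1 (1.92), the alcohol dehydrogenase Adh1 (2.44) and Aldh1a3 (4.72). With m5c left out of the mural clusters, an alternative chosen after seeing the data, Bco1 was still the 1 member called, at 5.88 (adjusted p = 0.0049, edgeR). Its adjusted p ran from 1.7e-04 to 0.061 over all alternatives, and the call was lost with sums per plate, at 5.10. Without the plate of most hepatocytes, also chosen after seeing the data, it was 4.87 (adjusted p = 0.010).

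Against fibroblast clusters Bco1 was again the 1 member of 8 called in stellate clusters, at 7.51 ± 1.14 (edgeR, adjusted p = 1.2e-04), with fibroblast sums of 0 to 24.4 CPM and 1.60% of 21329 genes called (1.23% higher). The same limit on its choice applies. The Lrat sums of fibroblast clusters were 9.56 to 338 CPM, below all 3 stellate sums. Aldh1a3 (6.30) was higher and Lpl (-1.79) lower among 52 list genes, with a median of 0.49.

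Mural and fibroblast clusters were not told apart by any of the 9 members, against 2.26% of 21329 genes called (1.22% higher and 1.04% lower). Lrat (1.13 ± 0.48, edgeR, adjusted p = 0.34) and Bco1 (2.51 ± 0.93, 0.21) had unadjusted p-values under 0.05, and they were the only 2. DESeq2 called Bco1 at 2.07 (adjusted p = 0.049), and Lrat was called without the filter on low counts at 1.13 (adjusted p = 0.0072). Lpl (-2.05), Ces1d (-2.90), a hydrolase of esters, and Adh1 (-3.96) were the list genes lower in mural clusters, of 52 tested with a median of 0.21.

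The capsular stellate cluster m3c and m7c had no member called of 8, with 5 of 21329 genes called (0.0234%). Only 3 sums entered, since the 4 female m7c cells were too few, so m7c had 1 sum and the spread was taken from the other clusters. No member had an unadjusted p under 0.05, and DESeq2 called none. Bco1 had a log2 fold change of -2.96 ± 2.11 and no call. On each plate with at least 5 cells of both clusters Bco1 was higher in m7c (392 against 311, 229 against 19.6, 57.1 against 1.53, 336 against 37.5 and 684 against 0 CPM), as a description. Lrat, untested, was 359 and 445 CPM in m3c against 1873 CPM in male m7c, without overlap.

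The cluster m5c differed from the other mural clusters in 1 of 9 members, against 1.55% of 21329 genes (1.46% higher and 0.0891% lower). Lrat was higher, with 1554 and 1292 CPM against 1.22 to 1154 CPM and no overlap (3.48 ± 0.78, edgeR, adjusted p = 0.014). Its nearest neighbour was m9c at 1100 and 1154 CPM. Bco1 (38.8 and 41.2 against 0 to 175 CPM) missed the threshold at 4.41 ± 1.23 (adjusted p = 0.059). It passed with DESeq2, without the filter, in thinned cells and without the plate of most hepatocytes (4.93, adjusted p = 0.03), over a range of 0.015 to 0.2. Lrat lost its call with sums per plate (3.50, adjusted p = 0.15). Of 52 list genes 4 were higher, among them Lrp1 (1.45), Lpl (1.55) and Aldh1a3 (5.43), with a median of 0.65.

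Cholangiocytes (p2) differed from hepatocytes in 3 of 9 members, of which 8 passed the filter on low counts, where 37.3% of 16694 genes were called (28.6% higher and 8.67% lower; with sums per plate 576 higher and 652 lower genes). Rbp4 (314 and 68.9 against 1074 to 2342 CPM) was lower by -3.65 ± 0.72 (edgeR, adjusted p = 3.3e-04) and Aldh1a1 (411 and 461 against 1019 to 4149 CPM) by -3.09 ± 0.58 (2.0e-04). Aldh1a2 (1.12 and 8.61 against 0 to 0.104 CPM) was higher (adjusted p = 0.011), on 491 counts from 6 of 194 cells. That call was lost in thinned cells (adjusted p = 0.079) and with sums per plate (0.11), and DESeq2 gave it no adjusted p. The hepatocyte sums were all male and only p2 had 2 sums, so the spread rests on 1 residual degree of freedom and on what is shared between genes.

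Among the list genes 8 were higher and 19 lower in p2, of 49 tested with a median of -1.50. The oxidoreductases carried 11 of the lower ones, led by Aldh8a1 (-9.31), Adh7 (-8.79), Rdh16f2 (-8.62) and Adh1 (-7.22), and only Rdh13 (6.06) and Rdh11 (3.45) were higher. The receptors Rarb (4.88) and Rarg (4.83) were higher and Rxra (-2.68) lower. Ttr (-2.33), the carotenoid oxygenase Bco2 (-5.27), the ester genes Ces1e (-4.89), Dgat2 (-2.87) and Plin2 (-2.57), and the targets Rarres1 (-13.68) and Rarres2 (-3.30) were lower, and Pnpla3 (9.02), Dgat1 (3.76), Ces1d (2.01) and Tgm2 (1.41) were higher.

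Sinusoidal endothelial clusters differed from the other endothelial clusters in 2 of 9 members, of which 6 passed the filter on low counts, against 1.92% of 18321 genes (0.759% higher and 1.16% lower). Cyp26b1 was higher (10 sums of 130.1 to 347 CPM against 6 sums of 1.4 to 88.1 CPM, 2.72 ± 0.58, edgeR, adjusted p = 0.020). Aldh1a1 was lower (0 to 9.36 against 1.12 to 219 CPM, -3.99 ± 0.94, 0.037). Of 44 list genes Scarb1 (1.77) and Dhrs3 (1.04), a retinal reductase, were higher, and Rbp7 (-4.53), a retinol binding protein, and Adh1 (-2.62) were lower, with a median of 0.27. The cluster e7, here among the sinusoidal ones, is annotated as central vein by the authors; with e7 among the others, an alternative chosen after seeing the data, the Cyp26b1 sums of the groups overlapped (146 and 162 CPM in e7 against 130.1 CPM in female e8), and Cyp26b1 was still called at 2.14 (adjusted p = 0.035) and Aldh1a1 was not, at -2.88 (adjusted p = 0.12). Aldh1a1 also missed the threshold with sums of at least 10 cells and with sex as a block (0.052), and with sums per plate both were lost, at an adjusted p of 0.37 each. Over all alternatives the adjusted p ran from 1.2e-05 to 0.37 for Cyp26b1 and from 1.6e-05 to 0.37 for Aldh1a1.

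Genes with the most similar pattern to a member were found by Pearson's r of log2(CPM + 1) over the 38 clusters, among 17304 genes that reach 10 CPM in a cluster. The clusters share plates and depth, so these are descriptions. Lrat was followed by Adra2b (r = 0.94), Gpat2 (0.93) and Adamts13 (0.92), each highest in m7c. Bco1 was followed by Nr1h5 (0.72), Lrtm1 (0.71) and Slc17a8 (0.70). Rbp4 ran with Golt1a, Serpina1c and Igfals (0.89 each), all highest in p3. Aldh1a1 ran with Gstm1 (0.91), Gstt1 (0.90) and Echdc2 (0.90), and Aldh1a2 with Cybrd1 (0.78), A630012P03Rik (0.76) and Anxa8 (0.76). Cyp26b1 ran with Pcdh17 (0.94), Gm16553 (0.94) and Btnl9 (0.93), and Cyp26a1 with Apon (0.79), Cyp2c37 (0.72) and Olig1 (0.71). Rdh10, with Ino80b (0.68) and Far2 (0.63), had the lowest values.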

How the data were processed

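Full-length transcriptomes of sorted liver cells were made with Smart-seq2. Per the labels and the study's methods the authors aligned reads to GRCm38 (mm10), counted them on gene exons with featureCounts (Subread), removed cells of low quality and clustered each class. The deposited values are raw counts per gene and cell with ERCC spike-ins, and the authors' tables of class, annotation and cluster. ERCC rows (92) were left out. Counts were summed per cluster, or per class, and pool with at least 5 cells and tested with edgeR 4.0.16 (quasi-likelihood, TMM, filterByExpr, clusters weighted equally in a contrast), with Benjamini-Hochberg adjustment over all genes tested. A fold change therefore averages log levels over clusters, and that of a gene at 0 in some sums depends on the prior count. The fits were first tested on simulated counts. Cells are not replicates, p-values measure the spread between pools, pools of male and female mice are different animals, and no source says whether pools of 1 sex share mice between classes. Intervals (95%) are exact binomial for shares and exact Poisson for CPM, and cover counting error only, since reads without molecular identifiers are not independent molecules. Doublets were not removed again. Genes named were the 9 members, list genes called (up to 4 per role and direction by size), the 3 genes most like a member, and markers. Some genes this rule takes are not reported here. The members and lists were chosen with earlier results of these data known. Alternatives were DESeq2 1.42.0, RLE size factors, no filter, 3 or 10 cells per sum, thinning to 50000 counts, sums per plate and the pool number as a block. R 4.3.3, Python 3.11.15 and SciPy 1.17.1 were used.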

Additional observations from a re-analysis of the deposited data

Results flagged for a closer look

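Rdh10 and Rbp4 each moved one way in the male pools and the other way in the female pools of 1 comparison, and the difference between the sexes was not tested. For Rdh10, stellate against mural clusters, the difference of mean log2(CPM + 1) was 1.06 in male cells (means of 11.7 and 10.4 CPM) and -1.60 in female cells (0.665 and 8.81 CPM). For Rbp4, m5c against the other mural clusters, it was -1.74 in male cells (5.43 and 37.5 CPM) and 2.05 in female cells (24.5 and 11.1 CPM). All female mesenchymal cells came from 1 plate, and among stellate clusters the female pool had enough cells in m3c alone. The male mean of Rbp4 in the other mural clusters included m15c at 116 CPM.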

How the results depend on the processing

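The number of members called moved by more than 1.5 times in 14 of 75 repeats of the 9 comparisons. With sums per plate 7 members were called in place of 4 for parenchymal cells, and 0 for stellate against mural clusters, for m5c and for sinusoidal endothelium, in place of 1, 1 and 2. Mural and fibroblast clusters differed in 1 member with DESeq2, without the filter and with at least 10 cells, in place of 0. The count for m5c was 2 in place of 1 with DESeq2, without the filter, in thinned cells and without the plate of most hepatocytes. For sinusoidal endothelium it was 1 with the pool number as a block, with at least 10 cells and with e7 among the other clusters. Of the log2 fold changes, 471 kept their direction and side of the threshold, 17 passed it, 12 missed it, and 28 turned sign. All of the last were of uncalled members, and their cause was not tested.

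Those that turned sign with DESeq2 were Cyp26b1 in p2 (-0.41) and in mural against fibroblast clusters (-0.40), and Aldh1a2 in m5c (2.47) and in stellate against fibroblast clusters (1.25). With at least 10 cells they were Rbp4 in mural against fibroblast clusters (-1.17) and in m5c (1.21) and Cyp26b1 in stellate against fibroblast clusters (0.98), and with at least 3 cells Rdh10 in m3c against m7c (0.47). In thinned cells they were Aldh1a2 (1.03) and Rdh10 (0.25) in m5c, Rbp4 in sinusoidal endothelium (0.43), Rdh10 in stellate against fibroblast clusters (0.19) and Aldh1a2 in stellate against mural clusters (-1.39). With sums per plate they were Rbp4 (-0.31) and Rdh10 (0.78) in m3c, Rdh10 in mesenchymal cells (0.20) and in m5c (0.41), Rbp4 in mural (-0.18) and Cyp26b1 in stellate clusters (0.28) against fibroblast clusters, and Aldh1a2 (-0.08), Cyp26b1 (0.24) and Rdh10 (-0.23) in stellate against mural clusters. Without the plate of most hepatocytes they were Cyp26b1 in mural against fibroblast clusters (-0.72), Aldh1a2 in m5c (0.79) and Rbp4 in stellate against mural clusters (-0.42).

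The pool number stands for sex in every class, and no source pairs the pools beyond that. Deviations of clusters with the same number correlated at 0.09 to 0.11 for classes, -0.04 to 0.15 for mesenchymal and -0.02 to 0.10 for endothelial clusters, and each of the 4, 11 and 8 clusters correlated best with its own number. With the pool number as a block, Bco1 missed the threshold for mesenchymal cells (adjusted p = 0.071) and Aldh1a1 for sinusoidal endothelium (0.052), Aldh1a2 passed it for parenchymal cells (0.047), and Rdh10 in parenchymal cells (-0.09), Aldh1a1 in mural against fibroblast clusters (0.02) and Aldh1a2 in m3c (0.85) turned sign. For p2 against hepatocytes no fit with the pool number as a block was possible, because only p2 has both pools with at least 5 cells there.

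The count of all genes called moved by more than 1.5 times in 25 of 75 repeats. DESeq2 called 4321 in place of 2838 for mesenchymal and 5601 in place of 2987 for parenchymal cells, 656 in place of 269 for stellate against mural, 548 in place of 341 for stellate against fibroblast (186 higher and 362 lower, in place of 262 and 79), 1324 in place of 481 for mural against fibroblast clusters, 142 in place of 5 for m3c and 1479 in place of 352 for sinusoidal endothelium. Without the filter the counts were 4761, 5066, 489, 528, 17 and 699 for the same comparisons except mural against fibroblast clusters, and 728 in place of 330 for m5c. Sums per plate gave 809 for stellate and 170 for mural against fibroblast clusters, 55 for m3c, 108 for m5c, 228 for sinusoidal endothelium and 1228 in place of 6225 for p2 (576 higher and 652 lower, in place of 4777 and 1448). With at least 10 cells the counts were 780 for mural against fibroblast clusters, 13 for m3c and 641 for sinusoidal endothelium, and m3c had 10 with at least 3 cells and 9 in thinned cells.

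At 20 counts the share of cells fell to 40.3% for Bco1 in m7c, 47.3% for Cyp26b1 in e6 and 0% for Crabp1 in m6c. As the mean of cells and in thinned cells, Rbp4 in p3 was 2336 and 2366 CPM, Aldh1a1 in p5 4395 and 4418 CPM, Cyp26a1 in p3 37.6 and 39.1 CPM, and the ratio of p5 to p4 was 2.43 and 2.51 for Aldh1a1 and 0.894 and 0.796, in place of 1.11, for Rdh10. Leaving out each pool gave values with no test, of which 46 of 118 moved by more than the standard error. Crabp1, Cyp26a1 and Aldh1a2 rest on few cells in most clusters.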
